A study of Mus musculus with 18 samples.

Results

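The levels of 9 genes enriched in thalamic neurons, Prkcd, Tnnt1, Ramp3, Tcf7l2, Slc17a6, Lef1, Zic1, Rgs16 and Synpo2, were followed in mice that lack Ppt1 and in wild-type mice. They were chosen as genes enriched in thalamus, with earlier results of these data known, and every probe set whose platform symbol is one of the 9 was taken, which gave 21 of the 45101 probe sets on the array and 9 of its 18194 gene symbols. Of these, 18 were bright enough to be tested, and each of the 9 genes had at least 1 of them. The study hybridised RNA of 18 samples to 1 Affymetrix mouse expression array each. The 6 groups were Ppt1 knockout and wild type, each aged 3, 5 or 8 months, with 3 arrays in each group. Sexes were mixed: 5 groups had 1 male and 2 females, and the 8-month knockout had 2 males and 1 female. The Ppt1 product is a thioesterase of the lysosome that cuts palmitate off proteins, and its loss causes a childhood neurodegenerative storage disease in which the thalamus is an early site of neuron loss.

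The labels give no other allele, no strain and no treatment, and do not say how the knockout allele was made. They name brain and cochlea as the source of the RNA without saying which part was dissected, or whether each array stands for its own animal. P-values therefore measure the spread between these arrays, which may be technical. All 10 pan-neuronal marker genes were bright enough to be tested. Of 11 cochlear marker genes, 9 had a probe set of that symbol alone, and only 3 of these were bright enough. Otoa, Tecta, Tectb, Pou4f3 and Slc26a5 lay at the background of the array on 9 or more of the 18. The Ppt1 signal was 0.879 to 23.4 on the 9 knockout arrays and 543 to 629 on the 9 wild-type arrays. Array medians lay between 43.2 and 46.1. On the leading axis of variation, which held 24.2% of the variance, knockout replicates 1 and 2 of 8 months scored 50.7 and 45.6 and replicate 3 scored 9.85, so replicate 3 stood apart from its group. The actin 5′ to 3′ signal ratio, a measure of RNA integrity, was 0.432 to 0.482 in the knockout and 0.501 to 0.525 in the wild type at 8 months. Member values at 8 months are given below without replicates 1 and 2 of the knockout where that ended a call.

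The thalamus relays sensory and motor signals to the cerebral cortex through excitatory relay neurons, which load glutamate into vesicles with VGLUT2, the product of Slc17a6. Tcf7l2 and Lef1, transcription factors that pair with beta-catenin at the end of the Wnt pathway, are expressed in developing and adult thalamus, and Zic1 encodes a zinc finger transcription factor. Prkcd, a protein kinase C isoform, Rgs16, which speeds the shutdown of G protein signals, Ramp3, which sets the ligand choice and transport of the calcitonin receptor family, Tnnt1, a slow-muscle troponin T, and Synpo2, an actin-binding protein of the synaptopodin family, are used as thalamic markers in adult mouse brain. None of the genes is limited to the thalamus: Zic1 is also high in cerebellar granule cells, and Slc17a6 in hypothalamus, midbrain and hindbrain.

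In the knockout, 5 members fell (below), and the region around their start sites is shown to let their upstream sequences be compared. All 9 members matched the RefSeq promoter table of build GRCm38.p6, with 15 windows of 300 bases, each from 250 bases before to 50 bases after a start site. Capitals mark 3 motifs, searched on both strands. CTTTGA is the core recognised by TCF and LEF factors. The TATA box was searched as TATAAA. The GC box was searched as GGGCGG. No 2 different motifs overlapped in these windows. The windows, 5′ to 3′ on the gene's strand, lie at chr14:30626159-30626458 on the minus strand for Prkcd, chr7:4515926-4516225 on the minus strand for Tnnt1, chr11:6658283-6658582 on the plus strand for Ramp3, chr1:153740103-153740402 on the plus strand for Rgs16 and chr3:123236100-123236399 on the minus strand for Synpo2.
Prkcd: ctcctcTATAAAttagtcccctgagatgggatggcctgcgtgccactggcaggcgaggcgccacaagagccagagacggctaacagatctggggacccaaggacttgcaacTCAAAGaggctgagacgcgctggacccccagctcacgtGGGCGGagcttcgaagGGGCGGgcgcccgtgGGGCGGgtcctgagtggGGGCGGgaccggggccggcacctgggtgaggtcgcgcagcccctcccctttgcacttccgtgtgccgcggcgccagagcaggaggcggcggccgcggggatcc
Tnnt1: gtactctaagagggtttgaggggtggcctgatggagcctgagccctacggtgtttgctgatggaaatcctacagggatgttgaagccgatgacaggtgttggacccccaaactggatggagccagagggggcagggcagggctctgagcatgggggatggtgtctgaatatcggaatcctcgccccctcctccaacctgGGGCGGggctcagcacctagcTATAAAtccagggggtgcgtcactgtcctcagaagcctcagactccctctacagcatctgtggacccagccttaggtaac
Ramp3: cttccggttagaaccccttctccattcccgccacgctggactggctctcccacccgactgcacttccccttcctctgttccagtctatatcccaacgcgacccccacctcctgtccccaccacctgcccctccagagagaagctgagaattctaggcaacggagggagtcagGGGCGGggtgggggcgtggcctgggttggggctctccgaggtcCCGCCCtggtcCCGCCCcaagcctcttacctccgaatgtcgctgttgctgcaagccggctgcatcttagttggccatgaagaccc
Rgs16: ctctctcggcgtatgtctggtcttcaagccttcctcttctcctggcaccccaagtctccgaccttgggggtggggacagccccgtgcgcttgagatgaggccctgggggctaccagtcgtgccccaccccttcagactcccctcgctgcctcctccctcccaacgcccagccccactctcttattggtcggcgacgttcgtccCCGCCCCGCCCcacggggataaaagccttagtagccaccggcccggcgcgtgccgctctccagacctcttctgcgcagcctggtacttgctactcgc
Synpo2: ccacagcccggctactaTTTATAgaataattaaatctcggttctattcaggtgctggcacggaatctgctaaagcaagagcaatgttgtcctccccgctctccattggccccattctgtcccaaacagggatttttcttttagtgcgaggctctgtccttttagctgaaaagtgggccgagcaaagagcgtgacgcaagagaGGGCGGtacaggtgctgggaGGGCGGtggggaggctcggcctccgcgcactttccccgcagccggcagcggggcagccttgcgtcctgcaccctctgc

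The GC box was the motif these 5 windows shared: there were 4 in Prkcd, 3 in Ramp3, 2 each in Rgs16 and Synpo2 and 1 in Tnnt1, and the 2 of Rgs16 overlap by 1 base. The TATA box lay 30 bases before the start site on the gene's strand in Tnnt1. Matches farther out lay 244 bases before the start on the gene's strand in Prkcd and 233 bases before it on the opposite strand in Synpo2. The TCF and LEF core occurred in 1 of the 5 windows, that of Prkcd, 139 bases before the start on the strand opposite the gene. Over the 15 windows of the 9 members, 11 held a GC box, 5 a TATAAA match on either strand and 2 the TCF and LEF core. These windows are not independent: Lef1 has 4 of them, and 2 of its windows overlap and count the same GC box. The shares of all 32851 windows in the table were 35.7%, 13.6% and 16%. The 5 printed windows were 57.3% to 69.3% G and C and the 15 were 42% to 70%, against a median of 52.7% over the table. Prkcd has another window, chr14:30610261-30610560, which is not printed here, is 51.3% G and C and held 0 matches to the 3 motifs. These letters are a description of the windows and not evidence that a factor binds there.

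Over the 3 ages, 5 members were lower in the knockout and 0 were higher. By the brightest probe set of each gene, Prkcd fell by 0.59 ± 0.07 on the log2 scale (SE of the fit), Rgs16 by 0.58 ± 0.12, Ramp3 by 0.56 ± 0.13, Tnnt1 by 0.55 ± 0.11 and Synpo2 by 0.50 ± 0.11. The adjusted p values were 1.58e-06, 0.00316, 0.00813, 0.00138 and 0.00263 in limma with Benjamini-Hochberg adjustment over the 27025 probe sets tested. Slc17a6, Tcf7l2, Lef1 and Zic1 did not pass, with changes between -0.04 and 0.02. Thus 5 of 9 members were called lower, beside 6.43% of all 12496 genes represented by their brightest probe set, and 0 higher, beside 8.39%. Counted by probe sets it was 6 of 18 beside 6.02%. The median change of the 9 members was -0.50, and that of all genes -0.01. Values were compared as log2(signal + 16), so fold changes understate the change of dim probe sets. In bulk tissue, fewer cells of a type and less RNA of a gene per cell cannot be told apart.

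**Figure D1:**
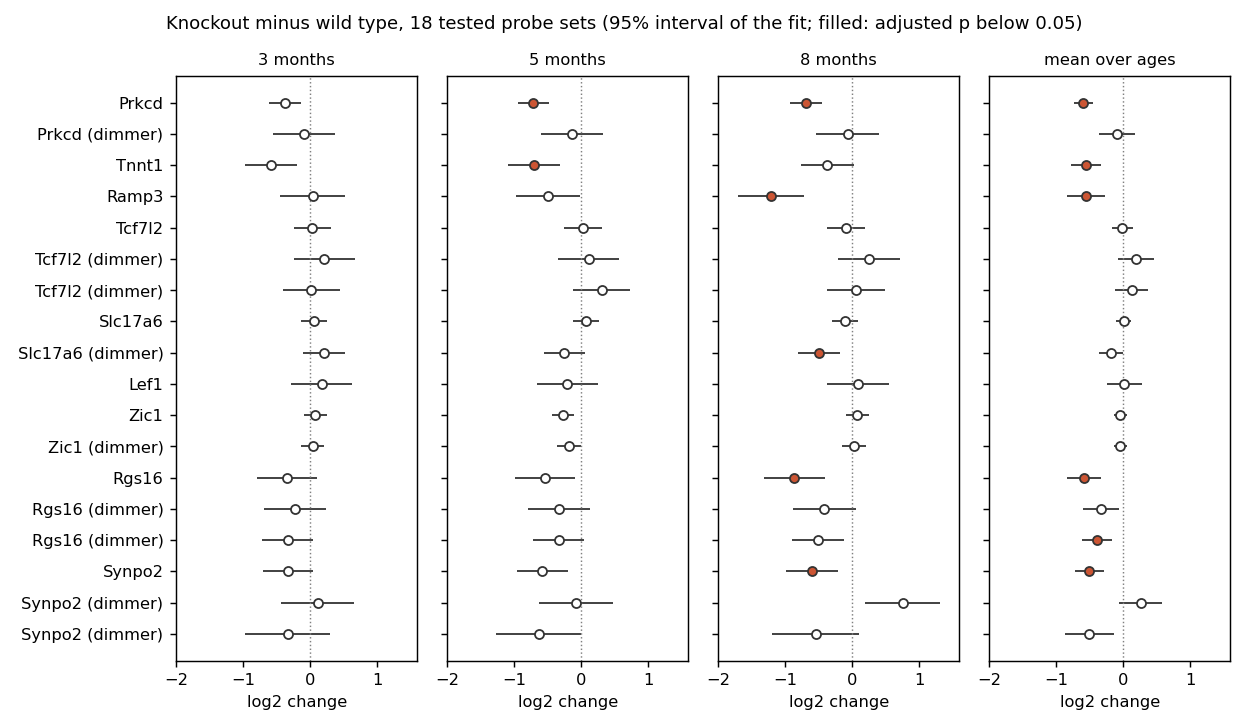
Change of each of the 18 tested probe sets, knockout minus wild type, on the log2(signal + 16) scale at 3, 5 and 8 months and as the mean over ages, with 95% confidence intervals of the limma fit over 18 arrays. Filled points passed at an adjusted p of 0.05. By the brightest probe sets, Prkcd, Tnnt1, Ramp3, Rgs16 and Synpo2 lie below 0 at 5 and 8 months, while the intervals of Slc17a6, Tcf7l2 and Lef1 include 0 at each age.

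By age, 0 of the 9 members passed at 3 months (beside 0.336% of genes called lower), 2 at 5 months (0.656%) and 4 at 8 months (5.95%). At 3 months 2 members had an unadjusted p under 0.05, Prkcd and Tnnt1. The members called at 5 months were Prkcd and Tnnt1, and those at 8 months were Prkcd, Ramp3, Rgs16 and Synpo2. All knockout arrays lay below all wild-type arrays for 4 members at 3 months, beside 8.61% of tested probe sets, 6 at 5 months, beside 10.1%, and 4 at 8 months, beside 14.3%. For 0 members did all knockout arrays lie above all wild-type arrays, beside 9.83%, 10.2% and 11.7% at the 3 ages. Members were counted here by their brightest probe set, while these shares cover all 27025 tested probe sets, dimmer ones of a gene included.

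**Figure D2:**
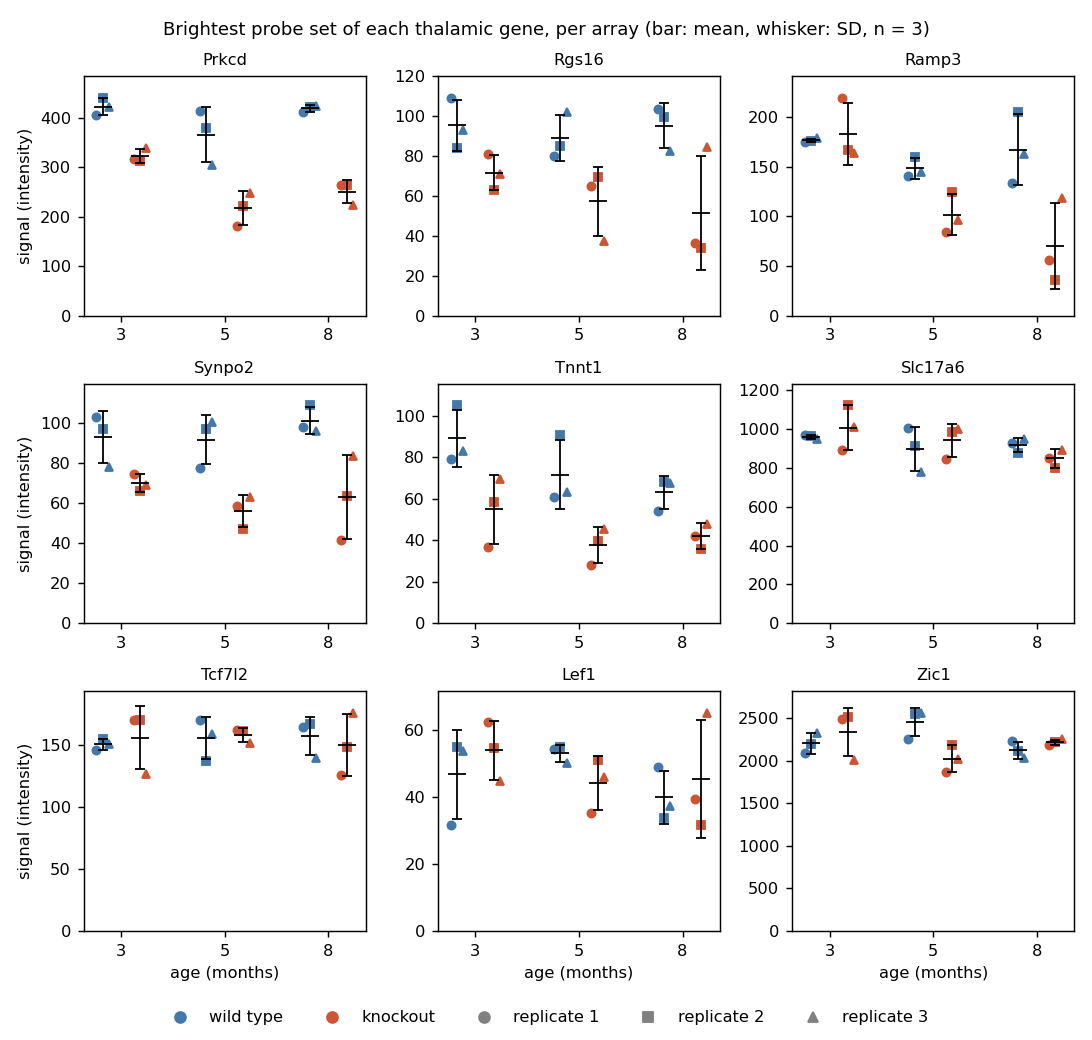
Signal (linear scale, axis from 0) of each member's brightest probe set on every array, grouped by age, with wild type and knockout side by side, bars at the group means and whiskers of 1 SD. The knockout points of Prkcd, Tnnt1 and Synpo2 lie below the wild-type points at every age, and in Ramp3 and Rgs16 replicate 3 of the 8-month knockout lies above the other arrays of that group.

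Prkcd, read by probe set 1422847_a_at, was the member with the smallest p, and its knockout arrays were below the wild-type arrays at all 3 ages. In replicate order, its signals at 3 months were 406, 441 and 423 in wild type and 316, 312 and 340 in knockout. At 5 months they were 413, 381 and 305 in wild type and 181, 223 and 249 in knockout, and at 8 months 412, 422 and 425 in wild type and 264, 265 and 224 in knockout. Both genotypes stayed apart at each age, and 6 of 9 knockout arrays were dimmer than any of the wild type at any age. At 3 months the change was -0.37 ± 0.11 with an adjusted p of 0.156, at 5 months -0.71 ± 0.11 (1.64-fold lower, adjusted p = 0.000558) and at 8 months -0.69 ± 0.12 (1.61-fold lower, adjusted p = 0.000475). The difference between the effects at 8 and 3 months, -0.31 ± 0.16, did not pass (adjusted p = 0.383). In the order of mean signals, the knockout at 5 and 8 months overlapped each other and lay below the knockout at 3 months, which overlapped the wild type at 5 months. Its dimmer probe set, 1442256_at, had a mean change of -0.10 ± 0.13 with an interval of -0.37 to 0.17. The mean signal of this dimmer set over all arrays was 39.7, beside 333 for 1422847_a_at.

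Rgs16, the other signalling member, fell over the ages and at 8 months. Signals of 1426037_a_at at 3 months were 109, 83.8 and 93.0 in wild type and 80.7, 63.0 and 70.9 in knockout. They were 80.2, 85.1 and 102 against 64.9, 69.6 and 37.6 at 5 months, and 104, 99.6 and 82.4 against 36.1, 33.8 and 84.4 at 8 months. The groups were apart at 3 and 5 months, whereas at 8 months knockout replicates 1 and 2 were low and replicate 3 lay among the wild-type arrays. The change at 8 months was -0.86 ± 0.22 (1.82-fold lower, adjusted p = 0.0131), and without knockout replicates 1 and 2 of that age it was -0.24 (adjusted p = 0.744). The same omission gave -0.38 over the ages (adjusted p = 0.0545). The 8-month call was also lost without knockout replicate 1 (-0.69, adjusted p = 0.0662) or 2 (-0.71, adjusted p = 0.12) alone and without wild-type replicate 1 or 2 of that age (adjusted p = 0.0513 and 0.0518). Of its other probe sets, 1455265_a_at was lower over the ages (-0.39 ± 0.11, adjusted p = 0.0168, or 0.101 without those 2 knockout arrays), and 1451452_a_at read -0.33 ± 0.13 (adjusted p = 0.108).

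Ramp3, the receptor partner, had similar means at 3 months, 177 ± 1.77 in wild type and 184 ± 31.4 in knockout (SD, n = 3), and the largest change of the 9 members at 8 months. Its signals were 176, 176 and 179 in wild type against 220, 167 and 164 in knockout at 3 months. At 5 months they were 141, 160 and 145 against 84.2, 125 and 96.3, and at 8 months 134, 205 and 163 against 56.1, 35.6 and 119. Knockout arrays overlapped the wild type at 3 months and lay below it at 5 and 8 months, and replicate 3 was again the brightest of the 8-month knockout. The change was 0.04 ± 0.23 at 3 months, -0.49 ± 0.23 at 5 months (adjusted p = 0.349) and -1.21 ± 0.24 at 8 months (2.32-fold lower, adjusted p = 0.00196). Within the knockout, Ramp3 was 2.54-fold lower at 8 than at 3 months (-1.34 ± 0.24, adjusted p = 0.0023), while in the wild type the same change was -0.09 ± 0.23. It was the 1 of 9 members called lower with age in the knockout, beside 2.12% of genes, and 0 were called in the wild type, beside 0.016%, where 1 had an unadjusted p under 0.05.

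The difference between the genotype effects at 8 and 3 months was -1.25 ± 0.33 for Ramp3 and did not pass (adjusted p = 0.0704). Left out, replicate 3 of the 8-month knockout moved it to -1.61 with an adjusted p of 0.000285. With replicates 1 and 2 left out instead, the Ramp3 change at 8 months was -0.36 (adjusted p = 0.498), over the ages -0.27 (adjusted p = 0.113), and from 3 to 8 months in the knockout -0.49 (adjusted p = 0.471). For the difference between the effects at 8 and 3 months, 0 of the 9 members passed (1 at an unadjusted p under 0.05), beside 0.208% of genes called lower.

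Tnnt1 and Synpo2 are the pair tied to the contractile and actin machinery. By their brightest probe sets, both were dimmer on every knockout array than on any wild-type array of the same age. Tnnt1 signals were 79.1, 105 and 83.3 in wild type against 36.7, 58.7 and 69.6 in knockout at 3 months. They were 61.0, 90.7 and 63.4 against 28.4, 39.5 and 45.4 at 5 months, and 54.2, 67.9 and 67.6 against 42.2, 35.7 and 48.1 at 8 months. The groups did not overlap at any age, and 7 of 9 knockout arrays were dimmer than any wild-type array of any age. The change was -0.59 ± 0.18 at 3 months (adjusted p = 0.182), -0.70 ± 0.18 at 5 months (1.63-fold lower, adjusted p = 0.047) and -0.37 ± 0.19 at 8 months (adjusted p = 0.225). The 5-month call was lost in 18 of 27 alternatives, with adjusted p values from 0.0197 to 0.233 over the 27. These include leaving out any 5-month knockout array, wild-type replicate 1 or 2 of 5 months, any wild-type array of 3 or 8 months, or knockout replicate 2 of 3 months. Within the wild type, Tnnt1 read -0.41 ± 0.18 from 3 to 8 months, which did not pass (adjusted p = 0.725).

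Synpo2 probe set 1452879_at read 103, 97.1 and 78.1 in wild type against 74.7, 66.1 and 69.2 in knockout at 3 months. It read 77.5, 97.0 and 100 against 58.4, 47.1 and 62.8 at 5 months, and 98.1, 109 and 96.0 against 41.6, 63.7 and 83.6 at 8 months. The groups were apart at each age, and 8 of 9 knockout arrays were dimmer than any wild-type array, the exception being replicate 3 at 8 months. Its change was -0.58 ± 0.18 at 5 months (adjusted p = 0.116) and -0.60 ± 0.18 at 8 months (1.52-fold lower, adjusted p = 0.0383), a call lost in 10 of 28 alternatives. It was lost without knockout replicate 1 (-0.40, adjusted p = 0.189) or 2 (adjusted p = 0.111) of 8 months, and without wild-type replicate 1, 2 or 3 of 8 months (adjusted p = 0.105, 0.111 and 0.0689). It was also lost without replicate 1 of either genotype at 3 months (adjusted p = 0.0506 in knockout and 0.0503 in wild type). Without both knockout replicates 1 and 2 of 8 months it was -0.24 (adjusted p = 0.705). The next brightest probe set, 1435399_at, had the opposite sign at 8 months, with 29.3, 24.5 and 25.6 in wild type and 58.8, 79.4 and 28.1 in knockout. Replicates 1 and 2 were high there and replicate 3 was near the wild type. That change of 0.75 ± 0.27 did not pass (adjusted p = 0.074), and without replicate 3 it was 1.02 (adjusted p = 0.00854). Another, 1450828_at, read -0.50 ± 0.18 over the ages (adjusted p = 0.0671) and lay at background on 2 of 18 arrays, and 1441206_at was too dim to be tested.

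Slc17a6, the vesicular glutamate transporter of relay neurons, did not pass by its brightest probe set, 1428379_at. The wild-type signals were 969, 964 and 950 at 3 months, 1006, 911 and 781 at 5 months and 930, 878 and 948 at 8 months. In knockout they were 892, 1123 and 1010, then 845, 984 and 1001, then 852, 801 and 895. The groups overlapped at all ages, and the mean change was 0.01 ± 0.05 with an interval of -0.10 to 0.12. The other probe set, 1418610_at, read 420, 390 and 367 in wild type against 479, 430 and 457 in knockout at 3 months, and 384, 413 and 368 against 279, 252 and 301 at 8 months. All its knockout arrays were above the wild type at 3 months and below it at 8 months. The 8-month change was -0.50 ± 0.15 (1.41-fold lower, adjusted p = 0.0359), a call lost in 8 of 28 alternatives. These include leaving out knockout replicate 1 or 2 (adjusted p = 0.0809 and 0.171) or wild-type replicate 1, 2 or 3 of that age (adjusted p = 0.0775, 0.122 and 0.0682). From 3 to 8 months the knockout signal of this probe set fell by 0.72 ± 0.15 (adjusted p = 0.00785). That call was lost without knockout replicate 1 of 3 months (adjusted p = 0.0521) or replicate 2 of 8 months (adjusted p = 0.0747). Without both knockout replicates 1 and 2 of 8 months, the change at that age was -0.40 (adjusted p = 0.444) and the change from 3 to 8 months was -0.62 (adjusted p = 0.32). At 5 months this probe set read 446, 400 and 244 in wild type and 244, 317 and 324 in knockout. The arrays at 244, wild-type replicate 3 and knockout replicate 1, were those with the lowest actin 5′ to 3′ ratios of the 18, 0.412 and 0.389. By the brightest probe sets, the same 2 arrays were the lowest of their groups for Prkcd, at 305 and 181. For Tnnt1 and Ramp3 only the knockout array was the lowest of its group, and for Rgs16 and Synpo2 neither was. The part of RNA integrity in these readouts was not tested.

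The transcription factors showed no called change between genotypes. Tcf7l2 probe set 1429428_at had a mean change of -0.01 ± 0.08 over the ages, with an interval of -0.17 to 0.15, and its other tested probe sets had changes of 0.19 ± 0.13 and 0.13 ± 0.12. Lef1 probe set 1454734_at had a mean change of 0.02 ± 0.13, with an interval of -0.24 to 0.28, and its second probe set, at background on 6 of 18 arrays, was not tested. Zic1 probe sets 1423477_at and 1439627_at both had a mean change of -0.04 ± 0.05, with an interval of -0.14 to 0.06 for the brighter. At 5 months Zic1 signals of the brighter probe set were 2263, 2548 and 2562 in wild type and 1873, 2185 and 2025 in knockout, which did not overlap, and the change of -0.28 ± 0.08 missed the threshold (adjusted p = 0.0828). It passed when knockout replicate 3 of 3 months was left out (adjusted p = 0.0225).

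The probe sets of a gene were compared after their values were seen, for all 9 pairs of a member's brightest and another tested probe set, by an exact two-sided permutation of genotype within age (8000 relabellings, smallest possible p = 0.00025). Of the 9 pairs, 2 passed. The change of the dimmer Prkcd probe set lay 0.49 above that of the brighter (exact permutation p = 0.00575, adjusted over the 9 pairs 0.036). That of Synpo2 1435399_at lay 0.74 above that of the brightest (exact permutation p = 0.008, adjusted 0.036). For Slc17a6 the change of the dimmer minus that of the brighter was -0.18, and this difference did not pass (exact permutation p = 0.083, adjusted 0.249). The other 6 pairs, of Tcf7l2, Zic1, Rgs16 and Synpo2, differed by -0.01 to 0.22 and did not pass. Where on each transcript these probe sets lie was not analysed here.

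**Figure D3:**
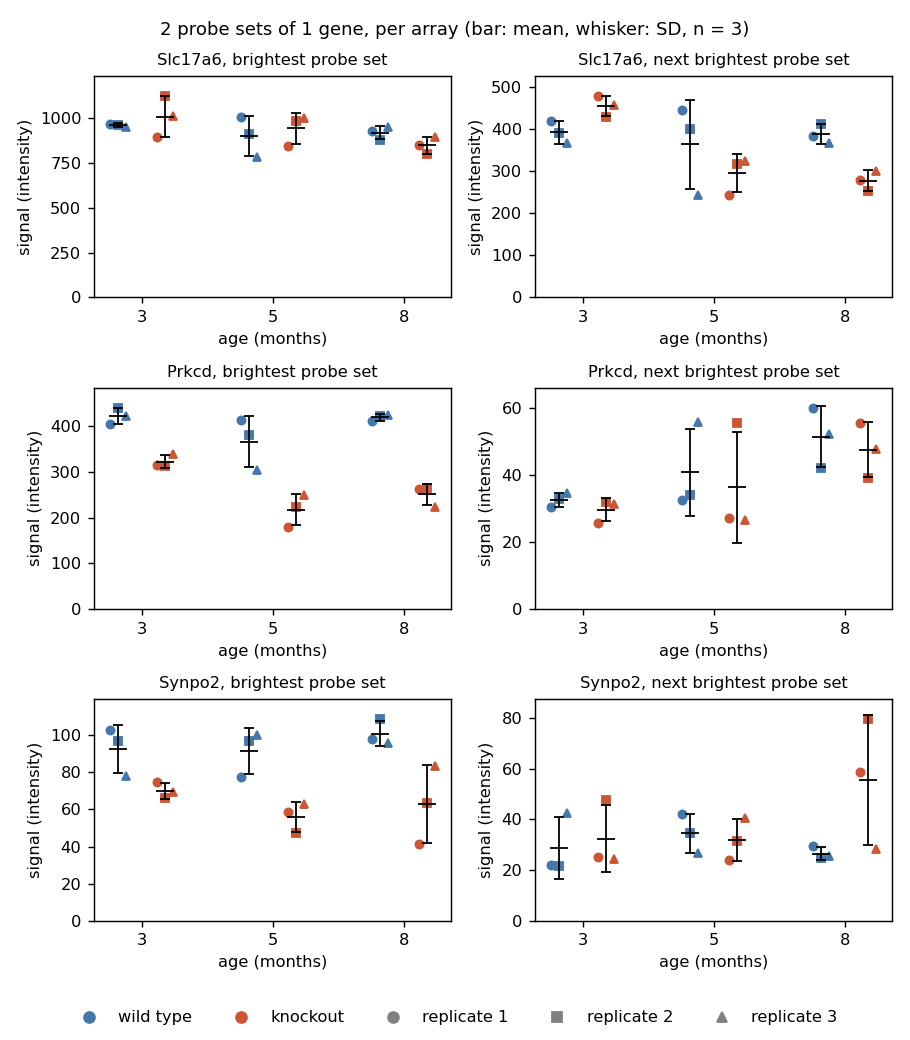
Signal of the 2 brightest tested probe sets of Slc17a6, Prkcd and Synpo2 on every array (linear axes from 0) by age and genotype, with bars at the means and whiskers of 1 SD. Prkcd 1422847_a_at separates knockout from wild type while 1442256_at does not, and Synpo2 1435399_at is high in 8-month knockout replicates 1 and 2.

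Genes with the most similar profiles were sought for Prkcd, Ramp3 and Rgs16, the members with the smallest p at 8 months, by the root mean square difference of centred log2 values over all 18 arrays and 12495 other genes. For Prkcd these were Sprn, Pde1a and Cyp11a1, with differences of 0.15, 0.19 and 0.19 beside a median gene at 0.41. Sprn encodes a prion-like protein, Pde1a a cyclic nucleotide phosphodiesterase, and Cyp11a1 the side-chain cleavage enzyme of steroid synthesis. For Ramp3 they were the proteoglycan gene Ncan, Car8 and the clock output gene Dbp, with 0.28, 0.29 and 0.30 beside a median of 0.58. For Rgs16 they were the neuropeptide gene Cck, Tmem41a and Mpped1, with 0.21, 0.21 and 0.22 beside a median of 0.43. All arrays enter these measures, including the group differences described above.

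Among other genes of the members' families and pathways, some were called higher and some lower over the ages. The shares of all 12496 genes were 8.39% higher and 6.43% lower. Of 7 other protein kinase C genes tested, 2 fell over the ages, Prkcz (-0.31, adjusted p = 0.000711) and Prkcb (-0.18, adjusted p = 0.00199). Of 8 other RGS genes 3 fell, Rgs14 (-0.36), Rgs8 (-0.24) and Rgs4 (-0.20). No calcitonin receptor partner of 6, no troponin of 3 and no other Zic gene of 3 passed. Among 5 relatives of Synpo2 and alpha-actinins, Synpo fell (-0.28) and Flna, which encodes the actin crosslinker filamin A, rose (0.41). In the Wnt pathway, where Tcf7l2 and Lef1 act, Apcdd1 (0.44) and Ccnd1 (0.33) rose and Dkk3 (-0.19) fell, of 17 tested. These Wnt counts lay near the shares of all genes. Of 5 other glutamate transporters 2 fell, including Slc17a7, the cortical vesicular transporter (-0.23, adjusted p = 0.00426), and the astrocyte transporters Slc1a2 (0.18) and Slc1a3 (0.23) rose. Slc1a3 lost its call in 12 of 28 alternatives, 10 of which left out 1 array, with adjusted p values up to 0.31. Without knockout replicate 2 of 8 months, 1 RGS gene was called lower. Without knockout replicates 1 and 2 of 8 months, Rgs8, Rgs4, Synpo, Flna, Dkk3 and Slc1a3 lost their calls over the ages, with adjusted p values of 0.309, 0.224, 0.0853, 0.0554, 0.0698 and 0.31.

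Other genes of thalamic relay neurons also fell in part. Of 22 tested, 9 were lower over the ages and 7 at 8 months, beside 6.43% and 5.95% of all genes. Their medians were -0.13 and -0.23 beside all-gene medians of -0.01 and -0.02. Leading ones were the tyrosine phosphatases Ptpn3 (-0.41, adjusted p = 9.8e-06) and Ptpn4 (-0.40, adjusted p = 0.00161) and the cadherin Cdh8 (-0.38, adjusted p = 0.00179). Without replicate 3 of the 8-month knockout the counts were 10 and 10, and without replicates 1 and 2 they were 5 and 0. Over the ages the count was also 5 without wild-type replicate 2 or 3 of 3 months or replicate 1 of 8 months. At 8 months it was 4 without knockout replicate 1, 2 without knockout replicate 2, 3 without wild-type replicate 1 and 4 without wild-type replicate 2. In the reticular nucleus list of 7, Pvalb and the vesicular GABA transporter Slc32a1 fell at 8 months (-0.48 and -0.30), and in the habenula list of 7, Nwd2 did (-0.75). Without knockout replicates 1 and 2 these values were -0.09, -0.21 and -0.14, and 0 genes of either list passed at 8 months. The reticular count was 0 without knockout replicate 2 and 1 without knockout replicate 1 or any wild-type array of that age, and Nwd2 did not pass without knockout replicate 1 or 2 or wild-type replicate 1 or 3. The summed signal of 24 other thalamic genes on the array was 9142, 9211 and 10678 in 8-month knockout replicates 1 to 3 and 11390 to 11633 in wild type.

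Markers of other cells moved at the same time. Over the ages, 8.39% of all genes were called higher and 6.43% lower. Of 11 astrocyte genes, 10 rose over the ages, with a median of 0.71, and of 14 microglia and macrophage genes 10 rose and 1 fell. Their summed signals at 8 months were 24692, 25761 and 17467 in knockout replicates 1 to 3 against 8272 to 8539 in wild type for astrocytes. For microglia they were 10840, 12681 and 6393 against 3801 to 4074, so replicate 3 was the lowest knockout array in both. Of 11 genes of meninges and fibroblasts, 8 rose over the ages, with a median of 0.37, and 7 at 8 months, with summed signals of 12306 to 13180 in knockout against 9224 to 10379 in wild type at that age. Without knockout replicates 1 and 2 of 8 months these counts were 4 and 1, and without replicate 2 alone the 8-month count was 3. Neuronal lists of other regions also held genes called lower over the ages, beside 6.43% of all genes. The counts were 6 of 9 cortical, 4 of 7 striatal, 1 of 9 cerebellar and 2 of 10 pan-neuronal genes. They were 0 of 8 hypothalamic and 0 of 9 midbrain and hindbrain genes. In lists this short, counts of 0 and 1 do not set regions apart. Without replicate 3 of the 8-month knockout the cerebellar count was 4 and the pan-neuronal count 5. Without wild-type replicate 1 of 3 months the cortical count was 3, and without wild-type replicate 3 of 3 months the hypothalamic count was 1. At 8 months, beside 5.95% of all genes, 4 of 9 cortical, 1 of 7 striatal, 3 of 9 cerebellar and 3 of 10 pan-neuronal genes were lower. With 1 array left out, these 8-month counts ranged from 2 to 5, 0 to 2, 1 to 5 and 0 to 5. Of 8 hypothalamic genes 1 was lower at 8 months, and of 9 midbrain and hindbrain genes 0. The cerebellar sum was 6505, 7087 and 10488 in 8-month knockout replicates 1 to 3 and 10501 to 11329 in wild type, so the array that was high for Ramp3 and Rgs16 was high here as well. The part of these shifts, and of the lower actin ratio, in the members' values was not tested.

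**Figure D4:**
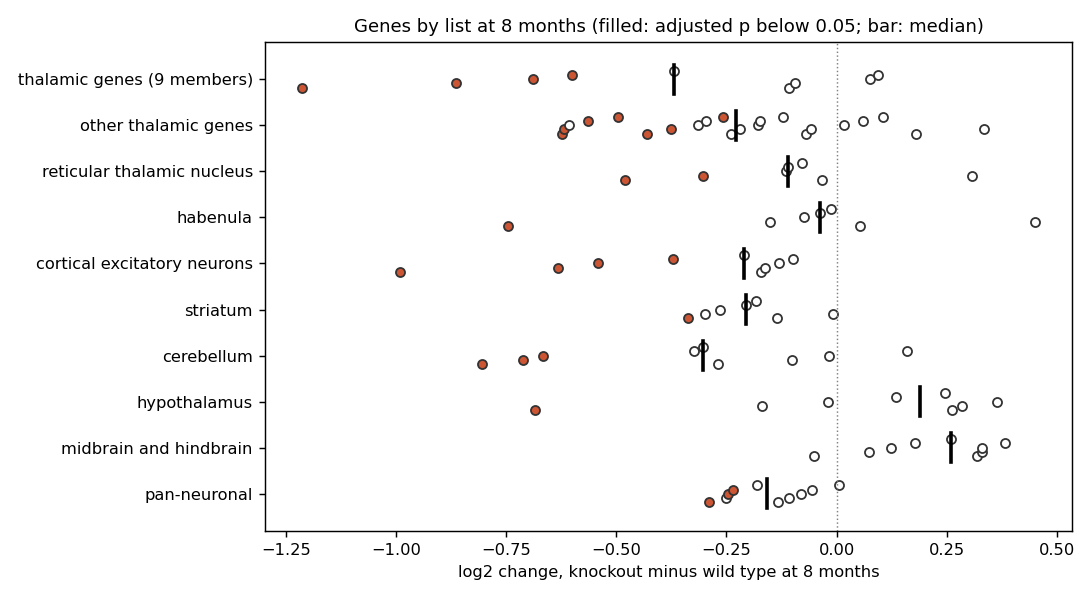
Change at 8 months, knockout minus wild type, on the log2(signal + 16) scale, for each tested gene of the members and of the neuronal marker lists, with bars at the medians and filled points for an adjusted p under 0.05. The members have a median of -0.37, cerebellar genes -0.30, other thalamic genes -0.23, cortical and striatal genes -0.21 each and pan-neuronal genes -0.16. Reticular nucleus genes have -0.11, habenula genes -0.04, hypothalamic genes 0.19 and midbrain and hindbrain genes 0.26.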

How the data were processed

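RNA of 18 samples was hybridised to 1 array each. The authors deposited linear intensities per probe set, and how these were made is not given in the sources used here. A trimmed mean, leaving out 2% at each end, came to 150 on all arrays, so they had been scaled to each other; no 2 held identical values. The deposited intensities were analysed as log2(signal + 16). After removal of 64 control probe sets and the dimmest 40%, 27025 remained, all with a mean log2 of 5.36 or more. The model, with 6 groups and an additive sex term, was fitted across all arrays in limma 3.58.1 (R 4.3.3). Tests were two-sided and used Benjamini-Hochberg adjustment over all tested probe sets at 0.05. The model was tested on simulated data.

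Each member was named by its brightest probe set and its other probe sets were given by their values. From each gene list, up to 3 genes with the smallest p that passed over the ages or at 8 months were named, and the most similar genes were taken for the 3 members with the smallest p at 8 months. Probe sets counted as background on an array at or below the 95th percentile of its bacterial controls. Levels were not compared between probe sets. The members and lists were chosen with earlier results of these data known. Replicates were numbered in the order of the sample records. Alternatives were quantile normalization, median centring, pseudocounts of 1 and 64, no filter or a 60% filter, no sex term, no variance trend, only the groups compared, and arrays left out. Promoter sequences came from RefSeq. The number of arrays, 3 in a group, limits the precision.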

Additional observations from a re-analysis of the deposited data

Results flagged for a closer look

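Slc17a6 probe set 1418610_at was above the wild type on all knockout arrays at 3 months and below it on all at 8 months, and the difference between these effects, -0.70 on the log2 scale, did not pass (adjusted p = 0.112 in limma). It passed without wild-type replicate 3 of 5 months (adjusted p = 0.0315), without knockout replicate 3 of 8 months (adjusted p = 0.0406) and with only the groups compared (adjusted p = 0.0325). Among genes of the lists named at 8 months or over the ages, the genotype effect at 8 months exceeded that at 3 months and passed for the astrocyte genes Gfap (1.39), Aqp4 (0.89) and Serpina3n (2.25). It also passed for the myelin genes Mal (0.70) and Cldn11 (1.18), the glucose transporter gene Slc2a1 (1.26) and the collagen gene Col1a1 (1.82). Over all probe sets this difference was higher for 194 and lower for 88, beside 0 and 0 with no variance trend, 38 and 6 without wild-type replicate 2 of 3 months and 948 and 1019 without knockout replicate 3 of 8 months. With no variance trend 0 of these 7 genes passed, and the lowest adjusted p among them was 0.0737. Mal lost its call in 19 of 28 alternatives, 14 of which left out 1 array, and the other 6 genes in 1 or 2. Without knockout replicates 1 and 2 of 8 months Aqp4 (adjusted p = 0.0734), Cldn11 (adjusted p = 0.0689) and Col1a1 (adjusted p = 0.0662) did not pass. Groups of 3 arrays were not tested for single outlying arrays.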

How the results depend on the processing

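No member value that passed changed direction under any alternative, and of 417 recomputed values of the 15 that passed, 366 still passed and 51 did not. Prkcd passed over the ages, at 5 months and at 8 months in 28 of 28 alternatives each. Over the ages, 5 members were called with any 1 array left out. The 5-month count was 1 (Prkcd) with quantile normalization, median centring, a pseudocount of 64, no filter, a 60% filter, no sex term or only the groups compared, and 1 to 3 with an array left out. The 60% filter left 7 members to test, and Tnnt1 was not among them. With only the groups compared, the counts were 1 at 3 months, 2 at 8 months and 0 for the change with age in the knockout. With 1 array left out, the count ranged from 2 to 4 at 8 months, and was 2 without knockout replicate 1 or 2 or wild-type replicate 1 or 2 of that age. It ranged from 0 to 1 for the difference between the 8- and 3-month effects and from 1 to 2 for the change with age in the knockout. Without both 8-month knockout replicates 1 and 2, which assumes that the lone array varies like the other groups, the counts were 3 over the ages, 1 at 8 months and 0 for the change with age in the knockout. The cause was not tested. Of 3055 recomputed values of the 111 that did not pass, 19 passed. The recounts of the gene lists and the probe set pairs were added after seeing the data. Of the other thalamic genes, 5 to 10 were lower over the ages and 2 to 10 at 8 months with an array left out. Under the other alternatives, 4 to 10 of them were lower over the ages. No paired analysis was possible because no replicate number is shared between groups in the labels. A block for slide or scan was not run, since neither was given. Dim probe sets near the background limit what could be read for Lef1, Synpo2 and Tcf7l2.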
